A study of Homo sapiens with 24 samples.

Results

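Cells pass from G1 into S phase when D-type cyclins bind the kinases CDK4 and CDK6 and phosphorylate the retinoblastoma protein RB1, which then releases E2F transcription factors, and CDK2 with cyclin E completes that phosphorylation. Inhibitors of the INK4 family, such as p16INK4a (CDKN2A) and p15INK4b (CDKN2B), bind CDK4 and CDK6, whereas p27KIP1 (CDKN1B) of the CIP/KIP family binds complexes of cyclins with CDK2. In squamous carcinomas of the head and neck (HNSCC), gain of CCND1 at 11q13 and loss of CDKN2A at 9p21 are among the known genetic changes. The messages of this circuit were followed here through 10 genes chosen by name, out of 57820 in the count tables: the D cyclins CCND1, CCND2 and CCND3, the kinases CDK4, CDK6 and CDK2, the inhibitors CDKN2A, CDKN2B and CDKN1B, and RB1.

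RNA-seq was performed on 24 libraries of SAS and Cal33, 2 established HNSCC cell lines, both labelled as wild type and derived from the tongue. Each line received 4 treatments, with 3 replicates of each: sham, GSK-J1 at 4.5 µM, a single x-ray dose of 4 Gy, or GSK-J1 together with 4 Gy, and RNA was isolated after 24 h. GSK-J1 is a small molecule that inhibits the H3K27 demethylases UTX (KDM6A) and JMJD3 (KDM6B). Nothing states that the replicates were separate cultures, so p-values reflect no more than the scatter among these samples, and each tumour background is represented by a single line.

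Sense-strand counts came to between 54200036 and 96848227 per library, and the members had between 266 and 55788 counts in a library. All 10 members passed the filter on low counts and were tested in every comparison. In both lines, 7 of 7 markers of squamous epithelium reached a mean of 1 CPM (counts scaled to a common library size). Of 10 markers of other cell types, CD14, VWF and COL1A1 reached that level, and the pan-leukocyte marker PTPRC and the T cell marker CD3E did not. In SAS, the first replicates of the GSK-J1 and of the combination group stood apart, because they held transcripts of 15 genes of Cal33 at 1.57% and 0.765% of their level in that line. The other 10 SAS libraries held at most 0.00527%, and SAS calls that changed without these 2 libraries are therefore given both ways.

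Promoter sequence is shown for CCND3, which rose after irradiation in both lines, and for CDKN2B, which was called higher in Cal33 alone. It is shown as far as the bases before their RefSeq starts (GRCh38.p14) lie outside annotated exons. CCND3 has 3 listed starts, and the bases before the first lie wholly in exons, so only those before the other two are shown. Both genes are on the minus strand and are written 5′ to 3′, with matches to the GC box (GGGCGG) and to CCAAT, on either strand, in capitals.

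CCND3, middle start, chr6:41941849-41942058: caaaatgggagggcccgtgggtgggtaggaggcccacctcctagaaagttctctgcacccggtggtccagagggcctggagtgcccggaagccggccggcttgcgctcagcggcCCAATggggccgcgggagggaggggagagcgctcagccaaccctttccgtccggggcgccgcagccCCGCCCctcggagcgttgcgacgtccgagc
CCND3, last start, chr6:41939206-41939455: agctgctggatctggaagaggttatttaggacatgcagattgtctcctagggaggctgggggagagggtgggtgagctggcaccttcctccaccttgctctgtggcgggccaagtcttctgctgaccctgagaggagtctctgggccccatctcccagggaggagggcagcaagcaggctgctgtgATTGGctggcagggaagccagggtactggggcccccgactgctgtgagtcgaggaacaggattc
CDKN2B, chr9:22009364-22009555: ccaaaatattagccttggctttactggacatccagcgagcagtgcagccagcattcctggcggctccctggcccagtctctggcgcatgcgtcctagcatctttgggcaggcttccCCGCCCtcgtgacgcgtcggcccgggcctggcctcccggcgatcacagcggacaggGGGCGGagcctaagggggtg

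The CCND3 stretch at the middle start holds 1 GC box and 1 CCAAT, that at the last start holds 1 CCAAT and no GC box, and the CDKN2B stretch holds 2 GC boxes and no CCAAT. Over the 250 bases before the start, a GC box stands in 42.6% of 35116 promoters and CCAAT in 32.0%, so both are common letters. The E2F forms TTTCGCGC, TTTGGCGC, TTTGGCGG and TTTCCCGC, the E-box CACGTG, the CRE TGACGTCA and the AP-1 site TGACTCA were also searched on both strands and are not in these 3 stretches. They stand in 2.83%, 6.35%, 1.65% and 4.20% of all promoters. A match is a description of letters and was not tested as a site.

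CCND3, which encodes cyclin D3, rose after irradiation in both lines. As these are bulk samples, a change in the mix of cells (or of cell cycle phases) and a change in RNA per cell cannot be told apart. CCND3 (hs37d5 chromosome 6, 41902671 to 42018095) had 45.4, 48.0 and 40.0 CPM in the 3 SAS sham libraries and 76.8, 71.9 and 71.2 CPM after 4 Gy. With GSK-J1 present, it had 44.4, 50.8 and 42.8 CPM without irradiation and 78.2, 66.6 and 68.7 CPM with it. Each of the 6 irradiated SAS libraries was above each of the 6 others. In SAS, the fold change was 1.65 for 4 Gy against sham (log2 fold change 0.72, SE 0.096, edgeR adjusted p = 0.00134) and 1.54 for GSK-J1 with 4 Gy against GSK-J1 (log2 fold change 0.63, edgeR adjusted p = 0.00417). Without the 2 libraries that held Cal33 transcripts, the latter was 0.53 on the log2 scale and not called (edgeR adjusted p = 0.0748), whereas the former kept its call (edgeR adjusted p = 0.00289).

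In Cal33, CCND3 had 51.6, 61.3 and 48.6 CPM in the sham libraries and 85.2, 79.2 and 92.2 CPM after 4 Gy. Under GSK-J1 it had 53, 49.0 and 64.2 CPM, and under GSK-J1 with 4 Gy it had 89.0, 81.6 and 108 CPM. The irradiated libraries again did not overlap with the others. The fold change in Cal33 was 1.6 for 4 Gy against sham (log2 fold change 0.68, SE 0.149, edgeR adjusted p = 0.0212) and 1.70 under GSK-J1 (log2 fold change 0.76, SE 0.149, edgeR adjusted p = 0.0143). The call of the first lost its threshold without Cal33 sham replicate 1 or 3 or 4 Gy replicate 1 or 3 (log2 fold change 0.62 to 0.69, edgeR adjusted p = 0.051 to 0.0799), and the call of the second without GSK-J1 replicate 1 or 2 or GSK-J1 with 4 Gy replicate 3 (log2 fold change 0.64 to 0.73, edgeR adjusted p = 0.0521 to 0.0742). Averaged over both irradiation comparisons, the log2 fold change was 0.67 in SAS (edgeR adjusted p = 6.17e-05) and 0.72 in Cal33 (edgeR adjusted p = 0.000675), and the difference between the lines was 0.03 (95% interval -0.22 to 0.29).

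**Figure D1:**
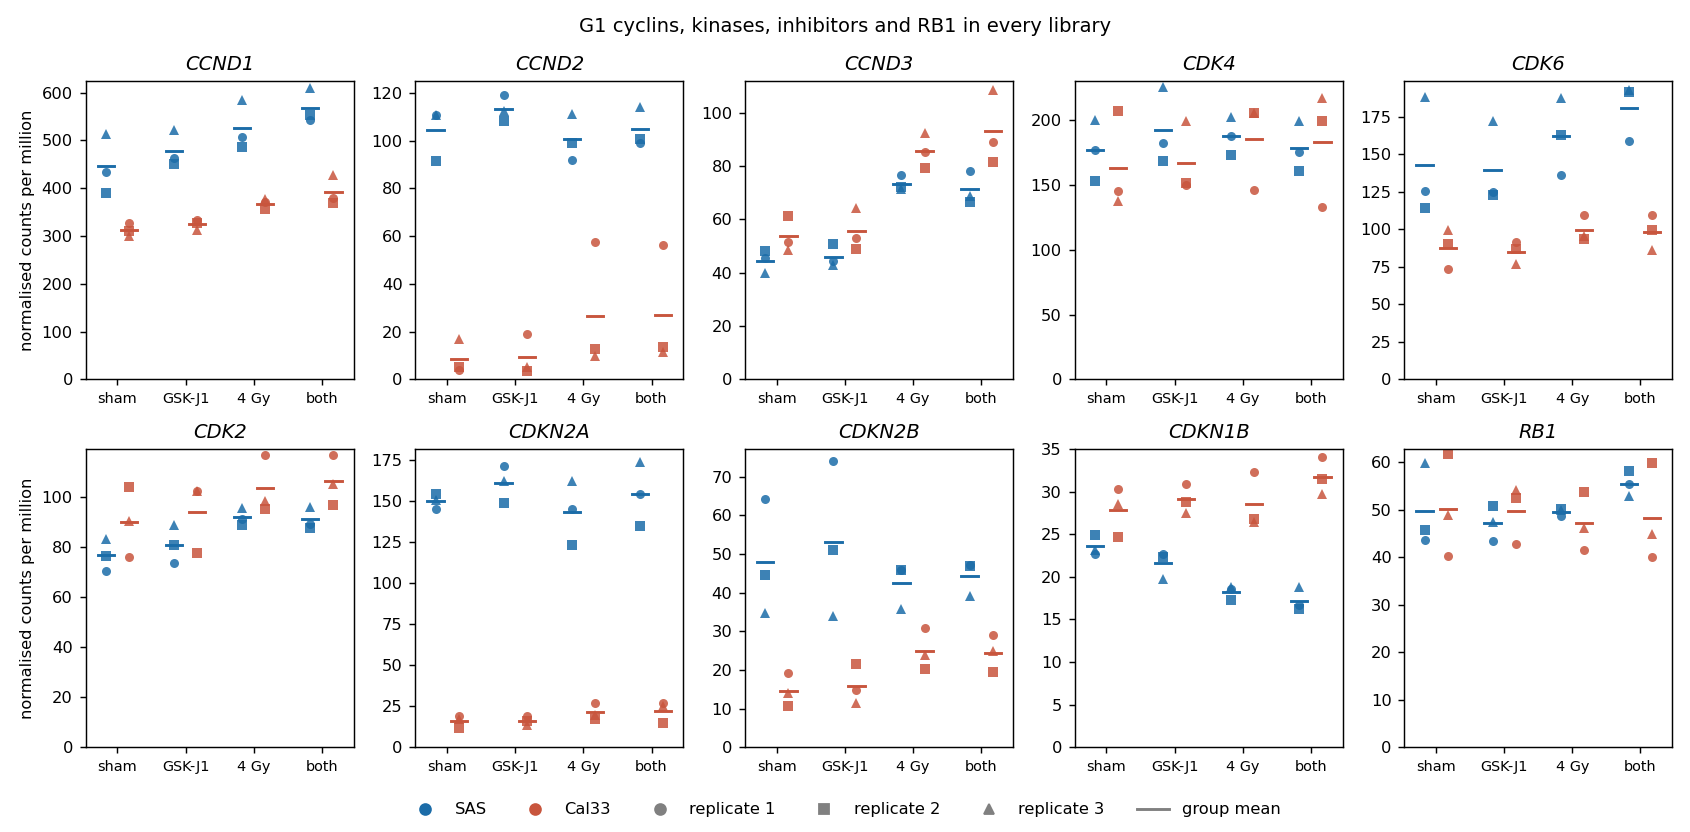
Level of each of the 10 members in CPM (vertical axes, linear) in every library of SAS and Cal33 under the 4 treatments; each point is 1 library and each panel has its own scale. CCND3 rose with irradiation in both lines, from 40.0 to 50.8 CPM to 66.6 to 78.2 CPM in SAS, while CDKN1B in the irradiated SAS libraries (16.2 to 18.8 CPM) did not overlap with the other SAS libraries and CCND2 and CDKN2A were lower throughout Cal33.

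CDKN1B, the p27KIP1 gene, fell after irradiation in SAS. Its level (chromosome 12, 12867992 to 12875305) was 22.7, 24.9 and 23.2 CPM in the SAS sham libraries and 18.6, 17.3 and 18.8 CPM after 4 Gy. It was 22.7, 22.3 and 19.8 CPM under GSK-J1 and 16.6, 16.2 and 18.8 CPM under GSK-J1 with 4 Gy. The lowest unirradiated library, at 19.8 CPM, was above the highest irradiated one, at 18.8 CPM. The log2 fold change was -0.37 for 4 Gy against sham (SE 0.092, 95% interval -0.57 to -0.17, edgeR adjusted p = 0.0299), a level 1.29-fold lower, and -0.33 under GSK-J1, which was not called (edgeR adjusted p = 0.0605; 0.0104 in a blocked fit, which takes same-numbered libraries as pairs). Over both comparisons it was -0.35 (SE 0.065, edgeR adjusted p = 0.0027, and 0.0223 without the 2 libraries that held Cal33 transcripts). The effect of 4 Gy against sham alone was close to the threshold: it ranged from -0.40 to -0.33 and was not called (edgeR adjusted p = 0.0583 to 0.11) when SAS sham replicate 1 or 2 or any of the 3 SAS 4 Gy libraries was left out, nor without the 2 libraries that held Cal33 transcripts (edgeR adjusted p = 0.051).

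In Cal33, CDKN1B had 30.3, 24.7 and 28.6 CPM in sham and 32.3, 26.8 and 26.5 CPM after 4 Gy, and the groups overlapped. With GSK-J1 it had 30.9, 28.8 and 27.5 CPM without irradiation and 34.1, 31.4 and 29.7 CPM with it. The averaged log2 fold change in Cal33 was 0.10 (SE 0.082, edgeR adjusted p = 0.432). The difference between the lines was tested itself. For 4 Gy against sham it was 0.40 (edgeR adjusted p = 0.315), and 0 of the 10 members were called by edgeR or by DESeq2, at a background of 0.427% of all genes, with 2 members at an unadjusted p under 0.05 (CDKN1B and CDKN2B). For the effect averaged over both comparisons, a contrast added after the data had been seen, it was 0.43 (SE 0.105, 95% interval 0.21 to 0.65, edgeR adjusted p = 0.0198), and CDKN1B was the 1 member called, at a background of 4.90%. Without the 2 SAS libraries that held Cal33 transcripts, this difference was 0.38 and was not called (edgeR adjusted p = 0.0812), nor was it called with no filter on low counts (0.44, edgeR adjusted p = 0.0553).

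CCND1, which encodes cyclin D1, and CDK2, the kinase partner of cyclin E, moved less. In SAS, CCND1 had 434, 390 and 513 CPM in sham and 508, 485 and 584 CPM after 4 Gy, and it had 462, 450 and 523 CPM under GSK-J1 and 543, 553 and 609 CPM under the combination. The sham and 4 Gy groups overlapped, with replicate 3 the highest in each of the 4 groups. In Cal33, CCND1 had 326, 310 and 301 CPM in sham, 370, 356 and 377 CPM after 4 Gy, 334, 327 and 313 CPM under GSK-J1 and 379, 369 and 427 CPM under the combination, so that each irradiated library exceeded each unirradiated one. Averaged over both comparisons, CCND1 rose 1.21-fold in Cal33 (log2 fold change 0.27, SE 0.066, edgeR adjusted p = 0.0116, and 0.0518 with no filter on low counts) and 1.18-fold in SAS (log2 fold change 0.24, SE 0.078, edgeR adjusted p = 0.0465). The difference between the lines was 0.01 on the log2 scale (95% interval -0.20 to 0.22).

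CDK2, whose gene overlaps PMEL on the other strand, in SAS had 70.7, 76.6 and 83.3 CPM in sham and 91.3, 89.1 and 95.8 CPM after 4 Gy, which did not overlap. With GSK-J1 it had 73.6, 80.9 and 88.9 CPM without irradiation and 89.5, 87.9 and 96.2 CPM with it, where 1 irradiated library lay below the highest unirradiated one. The averaged rise was 1.16-fold (log2 fold change 0.21, SE 0.061, edgeR adjusted p = 0.029). These SAS calls of CCND1 and CDK2 were close to the threshold and were lost when many of the single libraries were left out. CCND1 was called without SAS GSK-J1 replicate 3, 4 Gy replicate 2 or sham replicate 3, and without any other single SAS library it was not (log2 fold change 0.20 to 0.25, edgeR adjusted p = 0.0598 to 0.118). CDK2 was not called without sham replicate 1 or 2, 4 Gy replicate 1 or 3, GSK-J1 replicate 1 or 2, or the third library of the combination (log2 fold change 0.18 to 0.21, edgeR adjusted p = 0.0515 to 0.0743). Without the 2 libraries that held Cal33 transcripts, the adjusted p values of CCND1 and CDK2 were 0.116 and 0.102 with edgeR.

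In counts, 2 of the 10 members were called in SAS for 4 Gy against sham (CCND3 higher, CDKN1B lower), at a background of 7.08% of the 23416 genes tested. For GSK-J1 with 4 Gy against GSK-J1 in SAS, 1 was called (CCND3), at a background of 4.42%. Averaged over both, 4 were called in SAS (CCND1, CCND3 and CDK2 higher, CDKN1B lower), at a background of 20.2%. The median log2 fold change over the members was 0.05 in SAS against -0.01 over all genes.

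Replicate numbers paired the libraries of SAS, because same-numbered libraries deviated together from their group means in 6 of 6 pairs of groups. With the replicate block, 4 members were called in SAS for 4 Gy against sham, at a background of 24.5%: CCND1 (log2 fold change 0.24, edgeR adjusted p = 0.00839), CCND3, CDK2 (log2 fold change 0.26, edgeR adjusted p = 0.00476) and CDKN1B (edgeR adjusted p = 0.00438). Under GSK-J1, 4 were called with the block, at a background of 21.5%: CCND1 (edgeR adjusted p = 0.00800), CCND3, CDKN1B and CDK6, which had a log2 fold change of 0.39 (edgeR adjusted p = 0.0122). The averaged contrast with the block called 5, at a background of 37.0%, with CDK6 at 0.29 on the log2 scale (edgeR adjusted p = 0.00435). CDK6 (chromosome 7, 92234235 to 92465908) had 125, 114 and 188 CPM in SAS sham and 136, 162 and 188 CPM after 4 Gy, with replicate 3 high in both. No blocked fit of SAS, here or below, was repeated without the libraries that held Cal33 transcripts.

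**Figure D2:**
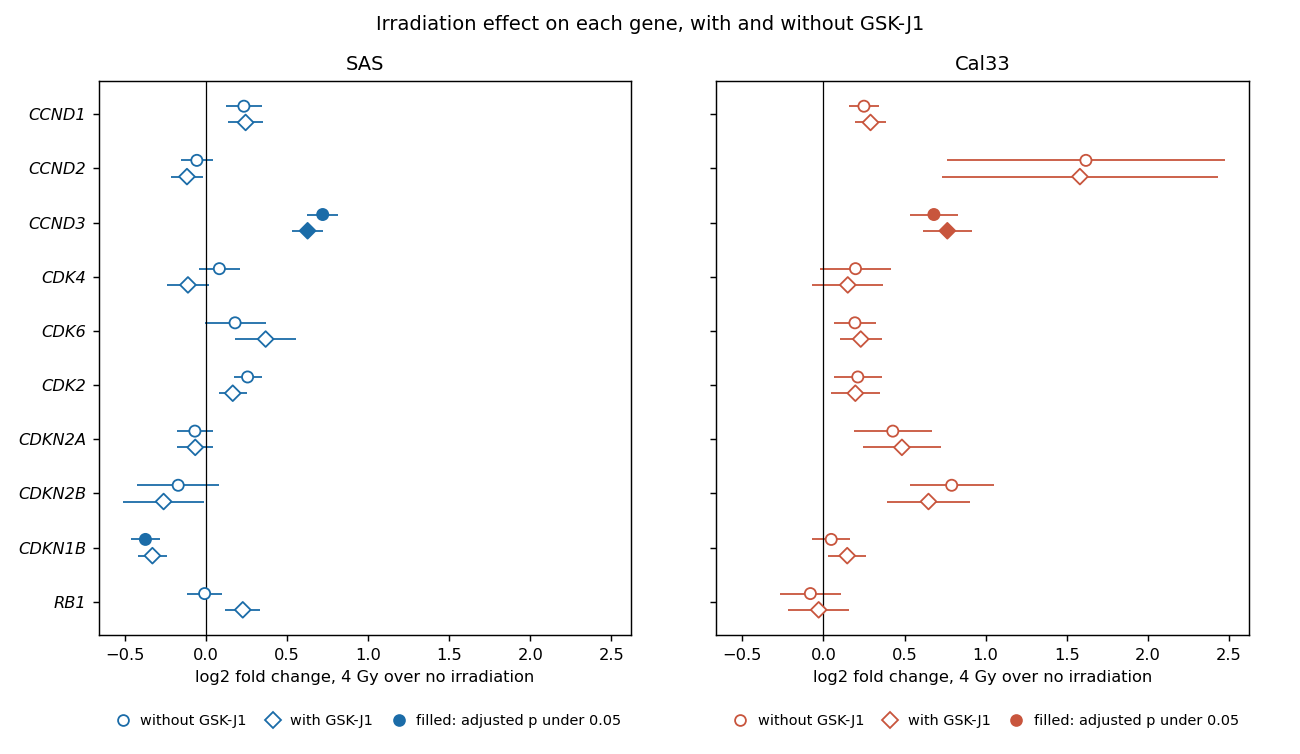
Log2 fold change of each member for irradiation without GSK-J1 and with GSK-J1 in SAS and in Cal33, with bars of 1 standard error; filled symbols passed edgeR's test at an adjusted p under 0.05. CCND3 lies between 0.63 and 0.76 in the 4 comparisons, and CDKN1B is below 0 in SAS (-0.37 and -0.33) and near 0 or above in Cal33.

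In Cal33, 1 of the 10 members was called for 4 Gy against sham (CCND3), at a background of 6.27% of the 24351 genes tested, and 1 under GSK-J1 (CCND3), at a background of 5.11%. Averaged over both, 3 were called, all higher (CCND1, CCND3 and CDKN2B), at a background of 21.5%. The median log2 fold change over the members was 0.24, against 0.02 over all genes. Above 0 were 9 of 10 members in Cal33 and 5 of 10 in SAS, and the share of all genes above 0 was not taken. The members were not tested as a set.

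CDKN2B, the p15INK4b gene, was the third. It lies on chromosome 9 from 22002902 to 22009362 and had 19.3, 10.6 and 13.9 CPM in Cal33 sham and 30.9, 20.1 and 24.0 CPM after 4 Gy. Under GSK-J1 it had 14.8, 21.5 and 11.4 CPM, and under GSK-J1 with 4 Gy it had 29, 19.6 and 24.9 CPM. The 4 Gy libraries were all above the sham libraries, whereas under GSK-J1 replicate 2 was higher without than with irradiation. The averaged fold change was 1.65 (log2 fold change 0.72, SE 0.182, edgeR adjusted p = 0.0146), and neither comparison alone passed (0.79 and edgeR adjusted p = 0.0889 for 4 Gy against sham, 0.65 and edgeR adjusted p = 0.169 under GSK-J1). In SAS, CDKN2B had 64.2, 44.6 and 34.8 CPM in sham and 45.9, 46.0 and 35.8 CPM after 4 Gy, which overlapped. The difference between the lines in the averaged effect was 0.91 (SE 0.276, edgeR adjusted p = 0.0597), which did not pass the threshold.

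CCND2, which encodes cyclin D2, spread widely between the libraries of Cal33. It had 4.07, 5.03 and 16.9 CPM in sham, 19.1, 3.59 and 4.97 CPM under GSK-J1, 57.4, 12.6 and 9.75 CPM after 4 Gy, and 56.1, 13.6 and 11.3 CPM under the combination. Replicate 1 stood far above replicates 2 and 3 in the last 3 groups, and in the sham group replicate 3 was the high one. The averaged log2 fold change was 1.6 (SE 0.604, edgeR adjusted p = 0.0765). In the Cal33 groups other than sham, same-numbered libraries deviated together in 3 of 3 pairs of groups, and with the block in a fit restricted to the GSK-J1 and combination libraries 4 members were called, at a background of 18.4%. There, CCND2 had a log2 fold change of 1.57 (SE 0.143, edgeR adjusted p = 8.39e-10), CDKN2B 0.68 (edgeR adjusted p = 0.00269), CDKN2A 0.45 (edgeR adjusted p = 0.0245) and CCND3 0.77 (edgeR adjusted p = 5.74e-06). The Cal33 sham libraries did not pair with the others by number. Between differently numbered libraries, the deviations of sham correlated at up to 0.811 with GSK-J1, 0.651 with 4 Gy and 0.615 with the combination. The reason was not tested.

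CDK4, RB1 and CDKN2A were not called for irradiation in either line in the fits without a block. CDK4, a kinase partner of the D cyclins whose gene overlaps TSPAN31 and MARCH9 on the other strand, had 177, 153 and 200 CPM in SAS sham and 188, 173 and 202 CPM after 4 Gy, and 145, 207 and 138 CPM in Cal33 sham and 146, 205 and 205 CPM after 4 Gy. RB1, the substrate of these kinases, had 43.7, 45.7 and 59.8 CPM in SAS sham and 48.7, 50.2 and 49.9 CPM after 4 Gy, and 40.2, 61.7 and 48.8 CPM and then 41.6, 53.7 and 46.1 CPM in Cal33. In each of these comparisons the groups overlapped. CDKN2A in Cal33 had 18.9, 11.7 and 17.3 CPM in sham and 27.2, 17 and 19.5 CPM after 4 Gy, which overlapped, and its averaged log2 fold change of 0.46 did not pass (SE 0.171, edgeR adjusted p = 0.0747).

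In the fits without a block, GSK-J1 moved none of the 10 members past the test in either line, with or without irradiation (edgeR adjusted p = 1 for each averaged effect). The background was 0% of all genes. These fits do not use the pairing of SAS libraries by number. The members with an unadjusted p under 0.05 were also 0 in each GSK-J1 comparison, against 486 of all genes for GSK-J1 against sham in SAS and 215 in Cal33, and DESeq2 called 0 members. In SAS, the averaged effects lay between -0.11 on the log2 scale for CDKN1B (95% interval -0.25 to 0.03) and 0.10 for CCND1 (95% interval -0.06 to 0.27), and CCND3 had 0.00 (95% interval -0.14 to 0.15). In Cal33 they lay between -0.03 for CDK6 and 0.11 for CDKN1B (95% interval -0.07 to 0.29). For CCND2 in Cal33, the 95% interval of -1.22 to 1.33 was wide, and a change was not detectable at this spread. The interaction, which asks whether irradiation acted differently under GSK-J1, also called 0 members in either line by edgeR or DESeq2, and 0 had an unadjusted p under 0.05. A blocked fit of only the 6 irradiated SAS libraries called 2 members for GSK-J1 with 4 Gy against 4 Gy, at a background of 7.98%: CDK6 (136, 162 and 188 CPM without and 159, 191 and 193 CPM with GSK-J1, log2 fold change 0.16, edgeR adjusted p = 0.00886) and RB1 (48.7, 50.2 and 49.9 CPM without and 55.3, 58.1 and 53 CPM with GSK-J1, log2 fold change 0.15, edgeR adjusted p = 0.0141).

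At baseline, the members with the largest differences between the lines were cyclin D2 and the INK4 inhibitors. Levels of different genes were compared per length, as TPM (counts per exon length, scaled to a common total in each library). In SAS sham, CCND1 was the most abundant member at 296 ± 46.4 TPM (SD, n = 3), followed by CDK4 at 178 ± 26.8, CDKN2A at 109 ± 3.42 and CDK2 at 63.2 ± 6.0 TPM. CCND2 (46.7 ± 5.54 TPM), CDKN2B (37.7 ± 11.5) and CDK6 (37.3 ± 11.1) followed and lay within their spread of each other. CCND3, CDKN1B and RB1, at 26.8 ± 2.00, 26.8 ± 1.09 and 25.8 ± 4.99 TPM, did not differ beyond their spread. In Cal33 sham, CCND1 had 209 ± 9.07 and CDK4 167 ± 40.3 TPM, which overlapped (one CDK4 library had 213 TPM), and CDK2 had 74.9 ± 12.1 TPM. CCND3 (32.8 ± 4.33 TPM), CDKN1B (32.0 ± 3.10), RB1 (26.3 ± 5.87) and CDK6 (23.1 ± 3.44) followed, and RB1 did not differ from CDK6 beyond their spread. CDKN2A, CDKN2B and CCND2 were the 3 lowest in Cal33, at 11.7 ± 2.70, 11.6 ± 3.44 and 3.90 ± 3.20 TPM.

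**Figure D3:**
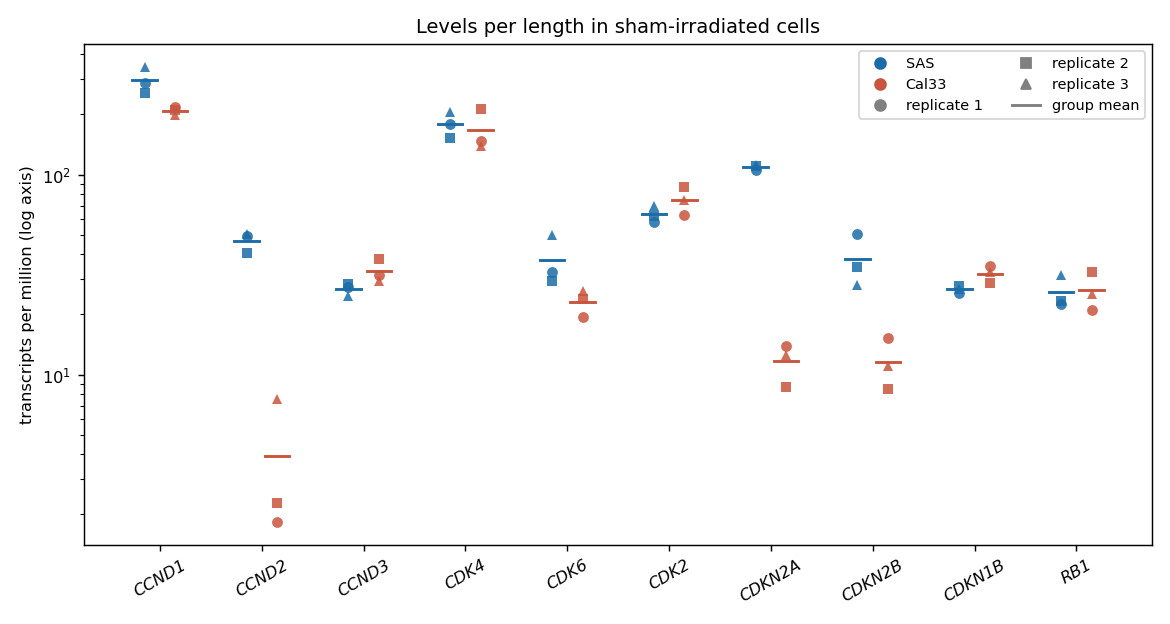
Level of the 10 members in the sham libraries in TPM (log axis), with 1 point per library for SAS and for Cal33. CCND1 and CDK4 are the highest in both lines, and CDKN2A (109 against 11.7 TPM on average) and CCND2 (46.7 against 3.90 TPM) separate the lines.

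Against SAS sham, 5 of 10 members were called in Cal33 sham, all lower, at a background of 54.5% of the 24597 genes tested. CDKN2A (chromosome 9, 21967751 to 21995300), whose counts pool the p16INK4a and p14ARF transcripts, had 145, 154 and 151 CPM in SAS and 18.9, 11.7 and 17.3 CPM in Cal33. It was 9.40-fold lower (log2 fold change -3.23, SE 0.217, edgeR adjusted p = 4.54e-11). CCND2 had 111, 91.7 and 111 CPM in SAS and was 12-fold lower in Cal33 (log2 fold change -3.58, SE 0.718, edgeR adjusted p = 0.000221). Cal33 sham replicate 3 made this difference smaller, and without that library the log2 fold change was -4.52 (edgeR adjusted p = 0.000121). CDKN2B was 3.27-fold lower (log2 fold change -1.71, SE 0.283, edgeR adjusted p = 2.49e-05).

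CDK6 was 1.63-fold lower in Cal33 (143 ± 39.9 CPM in SAS and 87.7 ± 13.2 CPM in Cal33, log2 fold change -0.70, edgeR adjusted p = 0.00162) and CCND1 1.43-fold lower (446 ± 62.1 and 312 ± 13.1 CPM, log2 fold change -0.51, edgeR adjusted p = 0.000172). CDK4 and RB1 did not pass, with differences of -0.11 (95% interval -0.50 to 0.27) and 0.01 (95% interval -0.31 to 0.34). DESeq2 called 7 at baseline, with CCND3 and CDKN1B in addition, which had log2 differences of 0.28 and 0.24 in edgeR (adjusted p = 0.0629 and 0.0573). Averaged over the 4 treatments, 8 of 10 members were called, at a background of 75.1%: in addition CDKN1B (log2 difference 0.55, edgeR adjusted p = 3.17e-09), CCND3 (0.29, edgeR adjusted p = 0.000224) and CDK2 (0.21, edgeR adjusted p = 0.00418) were higher in Cal33. These shares are close to the background of genes that differ between the lines.

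The makeup of the D cyclins followed from these levels. CCND1 made up 79.9 ± 1.95% of the summed TPM of the D cyclins in SAS sham (SD, n = 3) and 85 ± 1.52% in Cal33 sham. CCND2 held 12.7 ± 0.83% in SAS and 1.62 ± 1.38% in Cal33, and CCND3 held 7.39 ± 1.49% and 13.4 ± 1.53%. After 4 Gy, the CCND3 share was 10.2 ± 1.06% in SAS and 16.8 ± 1.06% in Cal33. CDK4 held 82.9 ± 2.19% of CDK4 and CDK6 together in SAS sham and 87.5 ± 2.95% in Cal33 sham.

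The genes next to the INK4 genes and to CCND1 were examined for the same difference between the lines. At 9p21, with differences given as Cal33 minus SAS over all treatments, CDKN2A was at -3.02 and CDKN2B at -1.27 on the log2 scale. Their neighbours MTAP (-0.66), a methylthioadenosine phosphorylase lost with CDKN2A in many tumours, and the antisense RNA CDKN2B-AS1 (-0.51) were lower in Cal33 by less. IFNE, DMRTA1, KLHL9 and FOCAD lay between -0.43 and -0.15. MTAP and CDKN2B-AS1 were thus transcribed in both lines. At 11q13, CCND1 was at -0.53, its nearest listed neighbour ORAOV1 at -0.43, and the amplicon genes FADD, PPFIA1 and CTTN at -0.18, -0.69 and -0.80. MYEOV (1.52), CPT1A (1.04) and ANO1 (0.56) were higher in Cal33. FGF3, FGF4 and MRGPRD had 0 counts in every library, and C9orf53 at 9p21 had at most 3. Gene copy number was not measured.

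**Figure D4:**
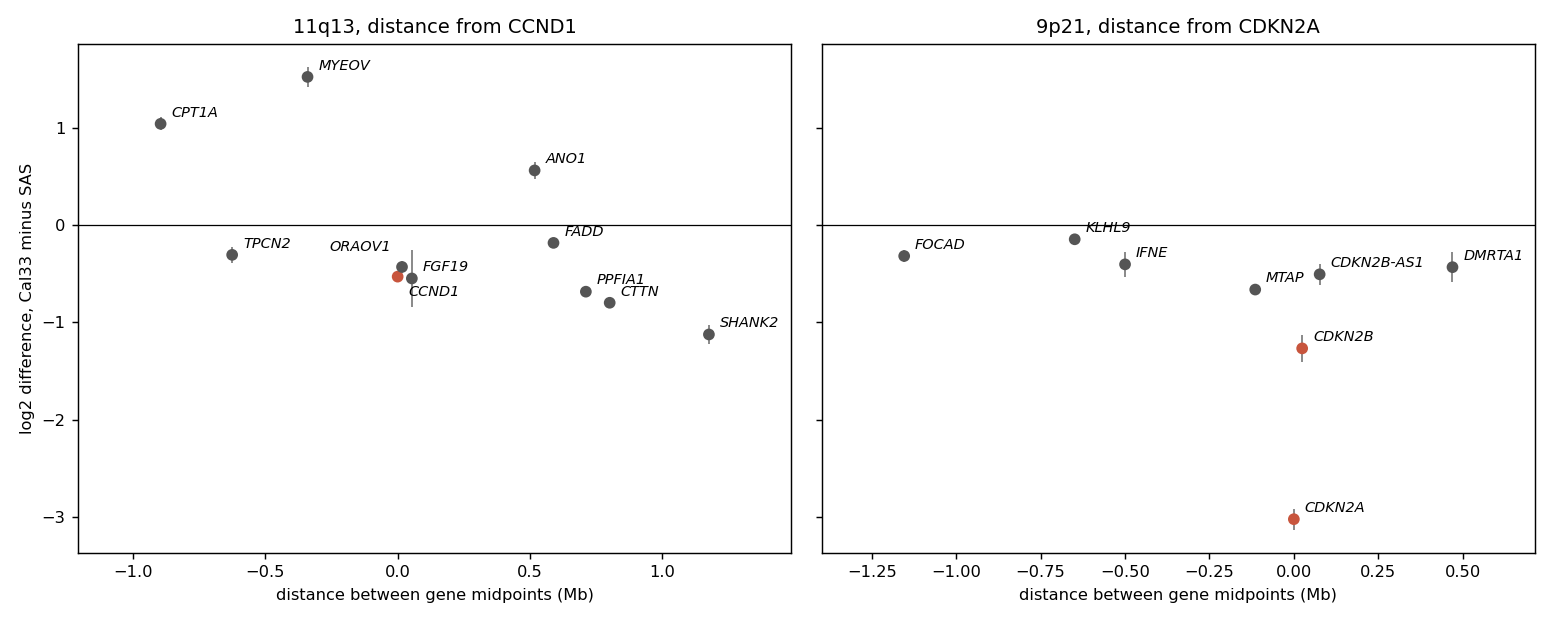
Difference between the lines (Cal33 minus SAS, log2 scale, averaged over the 4 treatments, bars of 1 standard error) of genes around CCND1 at 11q13 and around CDKN2A and CDKN2B at 9p21, against the distance from the anchor gene in megabases; members are in red. CDKN2A (-3.02) and CDKN2B (-1.27) stand below their neighbours, while CCND1 (-0.53) lies within the range of its neighbours, from -1.13 to 1.52.

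Other genes of the same circuit were followed through fixed lists, with the effect of irradiation averaged over both comparisons, in which 20.2% of all genes were called in SAS and 21.5% in Cal33. Of 4 other cyclins of G1 and S, 3 rose in SAS: CCNE1 (log2 fold change 0.51, SE 0.083, edgeR adjusted p = 0.00142) and CCNE2 (0.54, edgeR adjusted p = 0.0132), which encode the cyclin E partners of CDK2, and CCNA1 (0.93, edgeR adjusted p = 0.00968). In Cal33 none of these 4 passed, and CCNE1 had 0.35 (edgeR adjusted p = 0.296). Of 4 other INK4 and CIP/KIP inhibitors, CDKN1A, the p21 gene and a target of p53, was called in both lines. It had 73.3, 96.3 and 86.6 CPM in SAS sham and 118, 128 and 122 CPM after 4 Gy, and 109, 61.1 and 55.7 CPM and then 150, 86.3 and 115 CPM in Cal33. Its averaged log2 fold change was 0.49 in SAS (SE 0.078, edgeR adjusted p = 0.00117) and 0.67 in Cal33 (SE 0.213, edgeR adjusted p = 0.0408). CDKN2C, the p18INK4c gene, fell after irradiation in SAS (-0.42, edgeR adjusted p = 0.0473). In Cal33 it had -0.31 and narrowly missed the threshold (edgeR adjusted p = 0.0542). The difference between the lines was 0.09 (edgeR adjusted p = 0.86).

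Of 12 other pocket proteins, E2F and DP factors, 2 rose and 1 fell in SAS, namely the E2F targets E2F8 (0.72) and E2F1 (0.34) against TFDP2 (-0.17). In Cal33, 2 rose (E2F5 at 0.49 and E2F4 at 0.27) and 2 fell (RBL2 at -0.56, which encodes the pocket protein p130, and TFDP2 at -0.38). Of 11 CDK activators and turnover factors, 3 rose in SAS (the phosphatase CDC25A at 0.46, the CDK-activating kinase CDK7 at 0.22 and the kinase chaperone CDC37 at 0.21) and 2 in Cal33 (CDC37 at 0.49 and AMBRA1, an adaptor in cyclin D degradation, at 0.30). The shares called in both of these lists were near the background of all genes and are no result about the lists. Of 9 upstream inputs of the D cyclins, the AP-1 subunit FOSL1 had 1.19 in SAS (edgeR adjusted p = 0.00401) and 2.42 in Cal33 (edgeR adjusted p = 9.0e-05). JUN (1.96) and MYC (0.64) rose in Cal33, CTNNB1 (0.37) in SAS, and NOTCH1 fell in both lines, at -0.51 in SAS and -0.59 in Cal33. Of the 5 H3K27 enzymes, EZH2 (0.25) rose and EZH1 (-0.28) fell in SAS, and KDM6A (0.72) rose in Cal33. None of the genes in these lists was called for GSK-J1 in either line by edgeR in the fits without a block.

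**Figure D5:**
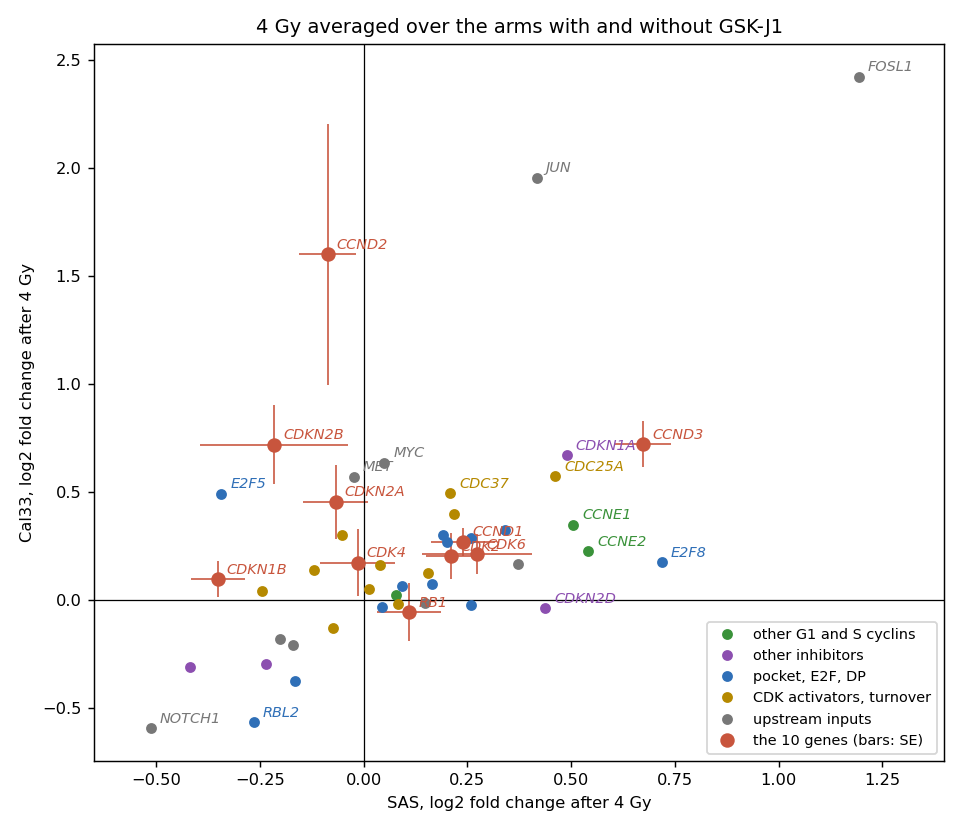
Averaged log2 fold change after 4 Gy in SAS (horizontal axis) and in Cal33 (vertical axis) for the 10 members, with bars of 1 standard error, and for the genes of the other lists. CCND3 lies at 0.67 and 0.72, CDKN1B at -0.35 and 0.10, and FOSL1 at 1.19 and 2.42; CCNA1 is near 0 counts in Cal33 and is not drawn.

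Of the neighbours, MYEOV and CPT1A (0.76 and 0.33) rose and FGF19 and SHANK2 (-0.93 and -0.58) fell after irradiation in SAS at 11q13, and FOCAD and MTAP (0.22 and 0.21) rose and KLHL9 (-0.34) fell at 9p21. In Cal33, MYEOV (0.96) and PPFIA1 (0.35) rose and CPT1A (-0.74) fell at 11q13, and FOCAD (-0.41) and KLHL9 (-0.30) fell at 9p21. Of the 23 calls of these lists and neighbours in SAS, 17 were also made without the 2 libraries that held Cal33 transcripts, an alternative chosen after the data had been seen, and none reversed. The other 6 had edgeR adjusted p = 0.0787 (CDKN2C), 0.123 (TFDP2), 0.0505 (CDC37), 0.0564 (EZH2), 0.0839 (FGF19) and 0.0507 (MTAP).

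At baseline, 54.5% of all genes were called. Of the 4 other inhibitors, 3 were higher in Cal33, in the opposite direction to CDKN2A and CDKN2B. CDKN2C (2.46, 3.37 and 2.20 CPM in SAS, 24.6, 28.6 and 26.6 CPM in Cal33), CDKN1C and CDKN2D were higher by 3.32, 2.49 and 1.25 on the log2 scale (edgeR adjusted p = 1.31e-12, 4.16e-05 and 2.75e-06). CDKN1C was low in SAS sham, at 0.57 CPM. CDKN1A was not called (log2 difference -0.18, edgeR adjusted p = 0.557). Of the upstream inputs, 6 of 9 were lower in Cal33 and none higher, among them FOSL1 (-2.28), MET (-2.06), MYC (-1.80) and CTNNB1 (-1.57). The share called is near that of all genes and is no result about the list. CDC25A was also lower (-1.86), and of the H3K27 enzymes KDM6A (-1.17) and EZH1 (-0.91) were lower and BMI1 (0.63) was higher.

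Within a line, several members moved together over the 12 libraries, which share the treatments, so that the correlations are descriptions. In SAS, CCND3 and CDKN1B ran in opposite directions (Pearson r of log2 CPM = -0.825, n = 12 libraries), and CCND1 ran with CDK6 (0.885) and CDK2 (0.845). In Cal33, CCND1 ran with CCND3 (0.900) and CDKN2A with its neighbour CDKN2B (0.843). In SAS, CCND1 with CCND3 had 0.542, and CDKN2A with CDKN2B had -0.071. Of 13371 genes in SAS, those whose pattern was most like that of CCND3 were PSMD2, MRGBP and CCDC69 (0.987, 0.983 and 0.982), and those most like CDKN1B were RP11-435O5.5, TLE3 and ZNF581 (0.970, 0.959 and 0.957). Those most like CCND1 in SAS began with PAK1IP1 (0.977) and HOMER1 (0.976), and those most like CDK2 were RP11-424C20.2, DNMT1 and CST6 (0.985, 0.980 and 0.977). Of 13498 genes in Cal33, CCND3 was most like AEN (0.982), followed by BAMBI (0.978), CDKN2B was most like KRT16 (0.989), and CCND1 was most like CPSF1P1, TADA2B and HM13 (0.970, 0.969 and 0.967).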

How the data were processed

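RNA was sequenced from 24 libraries with a stranded total RNA kit. According to the labels and the submitters' processing notes, reads were aligned to hs37d5 with STAR 2.5.3a, handled with SAMtools 1.6 and counted per gene with featureCounts of Subread 1.5.1. The values the authors deposited are raw counts per gene for 57820 genes, not normalized, and the sense-strand counts were used here (94.43 to 95.18% of all counts assigned with strand). Counting by strand matters for CDK4 and CDK2, whose counts without regard to strand were 64.1% and 74.0% of those with it.

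The 10 members, the gene lists and the alternatives were chosen with earlier results of these data known. Tests were run with edgeR 4.0.16 in R 4.3.3, as quasi-likelihood F tests of group means after TMM scaling, without covariates. Genes averaging 1 or more counts per library were tested: 23416 in SAS, 24351 in Cal33 and 24597 over both. The calling threshold was 0.05 for p-values adjusted by Benjamini-Hochberg over every gene tested. Effects within a line come from a fit of its 12 libraries, and comparisons of the lines from a fit of all 24. CPM come from the TMM library sizes of all 24, and TPM from exonic length. Differences between libraries of a group exceeded sampling noise in every pair (lowest chi-square per degree of freedom 35.6). Other genes named are, per list, up to 4 of those called, taken by size of change, or else the 2 with the smallest p, and the 3 genes most like each called member. The alternatives were DESeq2 1.42.0 and its size factors, other filters and thresholds, counts without strand, no structural RNA or mitochondrial genes, a replicate block, other sets of libraries and leaving out each library. On simulated counts, the test of 4 Gy against sham recovered 23% of 1.5-fold and 87% of 2-fold changes in SAS. In Cal33 it recovered 4% and 33%. The averaged effect recovered 83% and 100% in SAS, and 27% and 93% in Cal33. Every simulated gene of a line had the same spread. A gene that was not called, above all in Cal33, may thus still have changed. Promoters come from RefSeq (GRCh38.p14), in which 7 members matched (11 promoters), and the exons that were left out of the printed stretches from GENCODE 29. CCND1, CCND2 and CDK2 had no entry.

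Same-numbered libraries were taken as pairs where all 3 correlations of their deviations from the group means, across genes, were above 0.1. This held in 6 of 6 pairs of groups in SAS (lowest r 0.277 to 0.645) and in 3 of 3 in Cal33 without sham (0.166 to 0.738), and in 0 of 3 with Cal33 sham (-0.600 to -0.568).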

Additional observations from a re-analysis of the deposited data

Results flagged for a closer look

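The effect of 4 Gy, averaged over the comparisons with and without GSK-J1, differed between the lines in the test of the difference itself for CDKN1B and for 5 genes of the lists, a contrast added after the data had been seen. For CDKN1B the difference (Cal33 minus SAS, log2 scale) was 0.43 (SE 0.105, edgeR adjusted p = 0.0198; 0.0553 with no filter on low counts and 0.0812 without the 2 SAS libraries that held Cal33 transcripts), with each irradiated SAS library below each unirradiated one and no such separation in Cal33. The H3K27 demethylase gene KDM6A had a difference of 0.63 (edgeR adjusted p = 0.0176), and E2F5, a partner of the pocket protein p130, had 0.82 (edgeR adjusted p = 0.0274). The AP-1 subunit JUN had a difference of 1.52 (edgeR adjusted p = 0.0284). The mitochondrial carnitine palmitoyltransferase CPT1A, a neighbour of CCND1, fell in Cal33 and rose in SAS, with a difference of -1.09 (edgeR adjusted p = 7.57e-05), and of -1.13 for 4 Gy against sham alone (edgeR adjusted p = 0.0106). FOCAD, a neighbour of CDKN2A, likewise fell in Cal33 and rose in SAS, with a difference of -0.65 (edgeR adjusted p = 0.00278). Without those 2 SAS libraries, E2F5 (0.73, edgeR adjusted p = 0.0878) and JUN (1.37, edgeR adjusted p = 0.0848) were not called, while CPT1A, FOCAD and KDM6A kept their calls (edgeR adjusted p = 0.000499, 0.0133 and 0.0467 for the averaged effect). Why the lines differed was not tested.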

How the results depend on the processing

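No called effect changed direction: of 710 alternative values of 26 called effects, 672 kept their call, 38 lost it and 0 reversed. Effects that were not called are not among these values. Most of the alternatives left out 1 library of the same data, which leaves little room for a reversal. The scaling of the libraries moved the median of all genes by at most 0.03 on the log2 scale. Counts of called members did change, and the causes were not tested. For 4 Gy against sham in SAS, 4 were called with the replicate block over 12 or over 6 libraries, 1 without the 2 libraries that held Cal33 transcripts, in the fit of all 24 and in that of only 6, and 1 to 3 with single libraries left out. For GSK-J1 with 4 Gy against GSK-J1 in SAS, 2 were called at an adjusted p under 0.1, by DESeq2 and at a mean of at least 10 counts, 4 with the block, 5 with the block over 6 libraries and 0 without those 2 libraries. The averaged effect in SAS gave 2 without them and 2 to 6 with single libraries left out. For GSK-J1 with 4 Gy against 4 Gy in SAS, the block over 6 libraries gave 2. In Cal33, 4 Gy against sham gave 2 at an adjusted p under 0.1, with no filter and with the block over 6 libraries, 3 by DESeq2 and 0 to 1 with single libraries left out. Under GSK-J1 it gave 2 at an adjusted p under 0.1 and by DESeq2, 4 with the block over 6 libraries and 0 to 1 with single libraries left out. The averaged effect in Cal33 gave 5 at an adjusted p under 0.1 and in the fit of all 24, and 3 to 4 with single libraries left out, and with no filter CCND2 passed in place of CCND1. The averaged difference between the lines gave 2 at an adjusted p under 0.1, by DESeq2, with no filter (CCND2 and CDKN2B, not CDKN1B) and with the block, 0 without the 2 libraries and 1 to 3 with single libraries left out, and averaging itself took the difference from 0 to 1. Blocked values changed no other call of a member, other than CDKN2A in the averaged effect in Cal33 and CDKN1B in the sham comparison of the lines, which passed. In both fits the block took libraries as pairs that did not pair by number. Cal33 sham did not pair with the other Cal33 groups, nor SAS groups with Cal33 groups. The same limit holds for the blocked counts given above for 4 Gy against sham in Cal33 and for the difference between the lines. Measured as CPM, CCND1 held 74.8% of the D cyclins in SAS and 83.3% in Cal33 (83.4% from counts without strand), CCND2 17.6% in SAS (13.7% without strand), and CDK4 55.7% of both kinases in SAS and 64.7% in Cal33 (76.1% and 81.8% without strand).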
